A study of Mus musculus with 13 samples.

Results

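H3K27me3 was compared between an acute myeloid leukaemia (AML) line and a pair of pre-T lymphoblast lines that all carry the NUP98-PHF23 (NP23) fusion. Line 961C is a myeloblast line derived from the AML of a single mouse. Lines 748T and 106A are lymphoblast lines derived from pre-T LBL of different mice. All 3 were of strain C57BL/6 and grew without added cytokines, and every group carried the fusion, so no line without NP23 enters. Which promoter drives the fusion was not analysed here. The members are the autosomal H3K27me3 peaks that the authors listed for these lines on mouse build mm9: 19102 in 961C, 8362 in 748T and 5424 in 106A. Together they are 32888 of the 109165 peaks in all lists of a series of 13 samples. The series set out to relate H3K4me3 and H3K27me3 to the chromatin binding of NP23, and the H3K4me3 lists of the same 3 lines and the NP23 list of 961C served as further readouts.

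H3K27me3 is the trimethylation of histone H3 at lysine 27. It is written by the EZH enzymes of Polycomb repressive complex PRC2 and marks genes held silent, among them developmental regulators and genes of other lineages. It usually lies in broad blocks and is seldom found on the same nucleosomes as strong H3K4me3, the mark of active promoters, although both meet at the poised promoters of stem cells. NP23 joins part of the nuclear pore protein NUP98 to PHF23, whose PHD finger can bind H3K4me3.

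Each line was read by 1 library per antibody, so a difference between AML and pre-T is stated only where 961C stood apart from both pre-T lines, and no p-value can be given. Since the lists give pileup heights and no read totals, library depth is unknown. The median H3K27me3 peak reached a pileup of 12 reads in 961C, 12 in 748T and 10 in 106A. A second track in the lists, of which the meaning is not explained, exceeded a mean of 1 over 1.95% of 961C peaks, 0.538% of 748T peaks and 16.5% of 106A peaks. What genes lie in the regions below was not analysed here.

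H3K27me3 occupied more of the genome in the AML line, in more and in wider peaks. Peaks of 961C covered 8.78 Mb, those of 748T 2.23 Mb and those of 106A 1.51 Mb, so 961C covered 3.94 times the larger pre-T list. Cut to the tallest peaks so as to hold as many as the whole 748T list (8412), 961C still covered 5.33 Mb, and cut to the size of the whole 106A list (5600) it covered 4.25 Mb. The lowest peaks kept were 13 and 14 reads high.

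**Figure D1:**
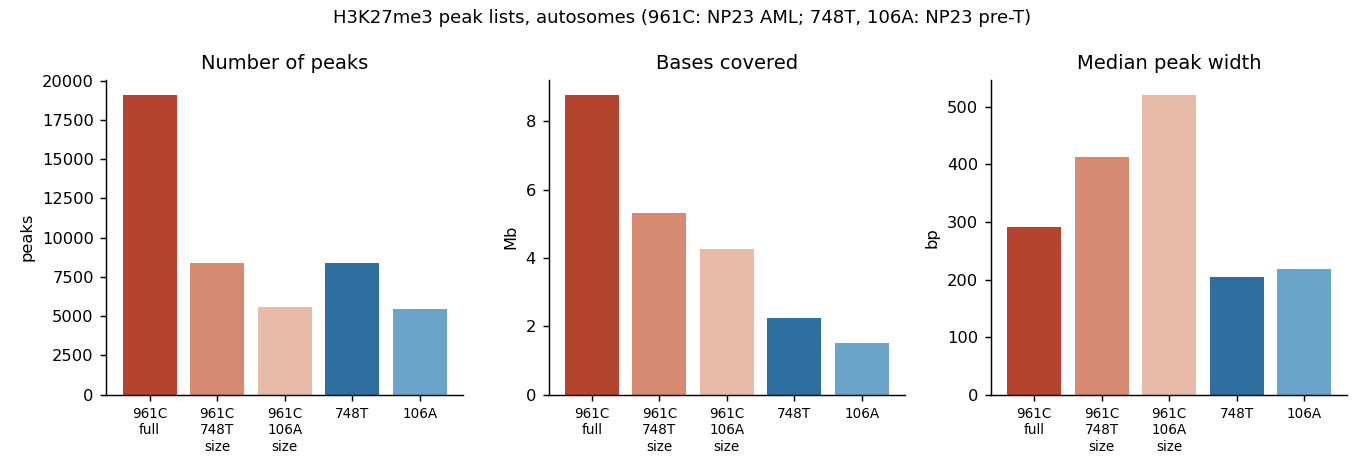
Number of autosomal H3K27me3 peaks, bases covered in Mb and median peak width in bp for each line, with 961C also cut to the sizes of the pre-T lists. With the number of peaks matched, 961C covered 5.33 and 4.25 Mb against 2.23 Mb in 748T and 1.51 Mb in 106A. Each bar is 1 library.

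The wide peaks set the lines apart most. The median width was 292 bp in 961C, 204 bp in 748T and 219 bp in 106A. Peaks of 1 kb or more numbered 1832 in 961C (9.59% of its list), 148 in 748T (1.77%) and 116 in 106A (2.14%). There were 411, 8 and 21 peaks of 2 kb or more in the same order. Peaks of 15 to 29 reads were also wider in the AML line than peaks of like height in the pre-T lines. At 15 to 19 reads the median width was 478 bp in 961C, 259 bp in 748T and 403 bp in 106A. At 20 to 29 reads it was 980 bp, 331.5 bp and 620 bp, the last from 37 peaks. At 30 reads or more it was 892 bp in 961C, 439 bp in 748T and 1717 bp in 106A, where only 3 peaks were so high. Heights were not scaled to depth, so equal heights need not mean equal enrichment, and the part of depth in the width of the peaks was not tested.

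Peaks also lay closer together in 961C. The median gap to the nearest peak on either side was 860 bp in 961C, 3392 bp in 748T and 6305 bp in 106A. Joined across gaps of up to 5 kb, the peaks formed 8074 domains in 961C, 4949 in 748T and 3753 in 106A. Domains of 10 peaks or more numbered 208, 67 and 13 in the same order. With 961C cut to the 748T size, it had 53 such domains, fewer than 748T, and with the cut to the 106A size it had 21.

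The widest single peaks were mostly not the same places in the 3 lines. Of the 5 widest of 961C, the first lay on chromosome 11 (118903000 to 118913558) and was met by 5 peaks of 748T and 9 of 106A, and no line had H3K4me3 over more than 5.01% of it. The peak on chromosome 19 from 43684735 to 43693601, 8867 bp wide, held no H3K27me3 and no H3K4me3 peak of either pre-T line. On chromosome 5 from 148078426 to 148087250, 106A had 3 peaks over 14.4% of the block and 748T had 0. On chromosome 11 from 97393474 to 97399610, the H3K27me3 block of 961C had 2 peaks of 748T and 0 of 106A. There H3K4me3 covered 13.4% of the block in 748T, 18.5% in 106A and 0% in 961C. The fifth, on chromosome 7 (51696556 to 51702413), had peaks of both pre-T lines over 31.4% and 5.10% of it.

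Of the 5 widest peaks of 748T, 2378 to 2683 bp wide, 961C marked 4 and 106A none. The exception was the widest, on chromosome 5 from 141066427 to 141069109, where neither other line had a peak. Of the 5 widest of 106A, 961C marked 3 and 748T marked 1. The one on chromosome 8 from 130881532 to 130884895 lay largely on H3K4me3 in all 3 lines, over 72.1% of it in 961C, 85.2% in 748T and 56.5% in 106A. It was the only one of the 15 named wide peaks with H3K4me3 of its own line over 50% or more of it.

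The longest domains of H3K27me3 were shared between 961C and 748T more often than with 106A. The longest of 961C, on chromosome 11 from 61332919 to 61449194, was 116.28 kb long with 65 peaks of 961C, 43 of 748T and 20 of 106A, and H3K4me3 of none of the lines. The next, on chromosome 16 from 91762450 to 91869780 (107.33 kb), had 63 peaks of 961C, 45 of 748T and 0 of 106A. Other blocks were nearly private to the AML line. On chromosome 2 from 35424108 to 35484959, 961C had 42 peaks and each pre-T line had 2. On chromosome 11 from 84404727 to 84452764, 961C had 26 peaks and each pre-T line had 0. Of the 10 longest domains of 961C, 47.1 to 116.28 kb long, 9 held a peak of 748T and 3 a peak of 106A. Of the 10 longest of 748T, 28.6 to 49.6 kb long, 10 held a peak of 961C and 5 a peak of 106A. Of the 10 longest of 106A, 18.8 to 100.01 kb long, 6 held a peak of 961C and 8 a peak of 748T. These counts used the full lists, of which that of 106A is the shortest, and were not matched for list size. Of the 4 domains of 106A without a peak of 961C, both pre-T lines marked 2, on chromosome 11 from 96114005 to 96139024 (9 peaks of 748T and 18 of 106A) and from 121553489 to 121574346 (6 and 10). The other two, on chromosome 3 from 79323851 to 79353329 and from 130702636 to 130723915, had 16 and 19 peaks of 106A and 0 of 748T.

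At the level of single peaks the lists shared little, and whether the AML line stood nearer to a pre-T line than the pre-T lines to each other depended on how its list was cut. Of 748T peaks, 470 of 8362 (5.62%, 95% interval 5.14 to 6.14) overlapped 106A by at least 1 bp. Of the same peaks, 11.5% (10.9 to 12.2) overlapped 961C cut to the size of the 106A list. Peaks of 106A met 748T in 8.44% (7.72 to 9.22) of cases and 961C cut to the 748T size in 11.5% (10.7 to 12.4). The differences, 5.91 and 3.08 percentage points in favour of 961C, held with equal numbers of peaks and not with equal bases. When 961C was cut to its tallest 2047 peaks, which cover as many bases as 748T, it met 5.57% of 106A peaks against 8.44% for 748T. Cut to 1192 peaks, which cover as many bases as 106A, it met 4.87% of 748T peaks against 5.62% for 106A. The shared bases did not turn in the same way, as given next. Intervals are exact Clopper-Pearson intervals at 95% and cover counting error only.

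Few bases were shared by any pair. The base-pair Jaccard index, the shared bases over all bases of a pair, was 3.04% for 748T and 106A, 4.08% for 961C and 748T, and 2.67% for 961C and 106A. With 961C cut to the 748T size the last pair gave 3.18%, and cut to the 106A size 3.31%. The pair of pre-T lines thus lay between the pairs with 961C in the full lists and below both with either cut, where 961C and 748T gave 4.86% and 5.06%. It also lay below both with equal bases, where 961C gave 3.42% with 106A and 4.53% with 748T.

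Merged over the 3 lines, the peaks formed 30089 regions. Of these, 17071 (56.7%) were in 961C alone, 6575 in 748T alone and 4291 in 106A alone. All 3 lines shared 207 regions, with a median width of 1144 bp, and 237 regions, of median 462 bp, were in both pre-T lines and not in 961C. Regions of 961C and 1 pre-T line numbered 1134 with 748T and 574 with 106A. Wide AML peaks were shared more often than narrow ones: 94.6% of 961C peaks under 250 bp met neither pre-T line, against 58.4% (53.5 to 63.2) of the 411 peaks of 2 kb or more. A wide peak has more room for an overlap, and that part of the difference was not tested.

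H3K27me3 common to the pre-T lines was found in the AML line more often than H3K27me3 of 1 of them. Of the 470 peaks of 748T that met 106A, 45.3% (40.8 to 49.9) also met the full 961C list, against 16.7% (15.9 to 17.5) of the other 748T peaks. Of the 458 peaks of 106A that met 748T, 44.5% (39.9 to 49.2) met 961C, against 13.6% (12.7 to 14.6) of the rest. The shared peaks were also wider, with medians of 308.5 against 197 bp in 748T and 324.5 against 207.5 bp in 106A. The widest region of both pre-T lines that 961C lacked lay on chromosome 3 from 94716641 to 94719070 (2430 bp), inside a block described below.

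Counted in bins of 100 kb, H3K27me3 differed between AML and both pre-T lines at a small share of places. The balance of the directions depended on the rule and the cut. A bin was called where the ratio of peaks, with 1 added to each count, was at least 4 against 748T and at least 4 against 106A, with 961C cut to the size of the list it was set against. Of 6755 bins with a peak in any line, 199 (2.95%) were called higher and 46 (0.681%) lower in 961C. In the full lists 961C had a peak in 4486 bins, 748T in 3258, 106A in 2545 and all 3 lines in 765. Both pre-T lines had peaks and 961C none in 316 bins. The balance of the calls rests on the cut. With 961C cut to equal bases, 14 bins were higher and 86 lower, and with the full 961C list 956 were higher and 30 lower. It rests also on asking for both pre-T lines: a higher bin may be empty in both, while a lower bin needs peaks of both. Against 106A alone 405 bins were higher and 341 lower, and against 748T alone 435 and 392.

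**Figure D2:**
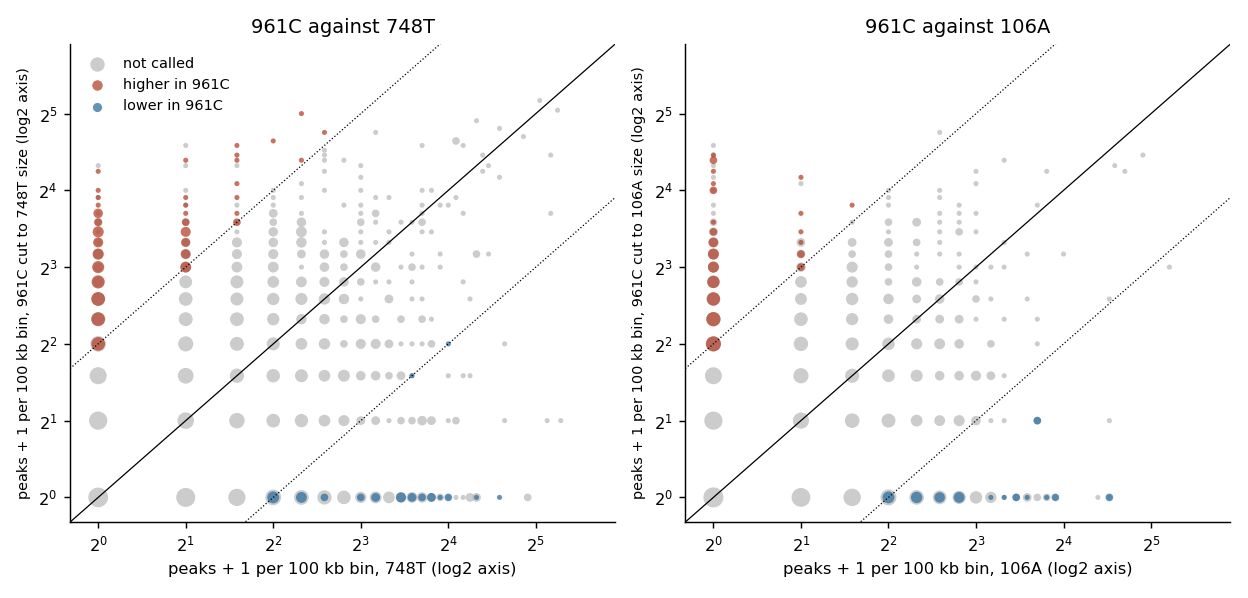
Peaks per 100 kb bin plus 1 in 961C, cut to the size of the list on the x axis, against 748T and 106A, on log2 axes. Each point stands for the bins with that pair of counts, larger for more bins; solid line, equal counts; dotted lines, 4-fold. Red points are the 199 bins higher in 961C than in both pre-T lines and blue points the 46 lower ones. Most red points sit at the left edge, where the pre-T count is 0.

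The call asks for pre-T counts near 0 where the AML count is moderate, so the counts that follow describe the bins and support nothing. In the bins higher in AML, both pre-T lists were at 0 in 158 of 199. All 199 together held 2341 peaks of the full 961C list, 57 of 748T and 10 of 106A. They lay on all 19 autosomes, with 28 on chromosome 11 and 22 on chromosome 2, and 34 of them adjoined another. The highest ranked, on chromosome 15 from 78500001 to 78600000, held 22 peaks of 961C over 17692 bp and 0 in both pre-T lines. H3K4me3 covered 3914 bp of the same bin in 748T, 2669 bp in 106A and 0 bp in 961C. The next lay on chromosome 5 from 118600001 to 118700000, with 21 peaks against 0 and 0, and there H3K4me3 was found in all 3 lines (3215, 2061 and 1479 bp in 961C, 748T and 106A). The third, on chromosome 11 from 119400001 to 119500000, had 26 peaks of 961C, 1 of 748T and 0 of 106A. Over the 10 highest ranked bins, 961C had 10 to 26 peaks.

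The bins lower in AML were fewer, and their counts too restate the call. The full 961C list was at 0 in 29 of the 46, and the 46 together held 57 peaks of 961C, 370 of 748T and 301 of 106A. They lay on 16 chromosomes, 10 of them on chromosome 11. The first, on chromosome 3 from 94700001 to 94800000, held 19 peaks of 748T, 22 of 106A and 4 of 961C. The next, on chromosome 11 from 96100001 to 96200000, held 12, 22 and 0. On chromosome 2 from 103700001 to 103800000 there were 23 peaks of 748T and 8 of 106A, and on chromosome 6 from 146900001 to 147000000 there were 11 and 14, with 0 of 961C in both. With the full 961C list, 30 of the 46 stayed below both pre-T lines by 4-fold.

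H3K4me3, which had no part in choosing the bins, ran the other way. Of the 161 bins with more H3K27me3 in AML that held H3K4me3 in any line, 961C had fewer H3K4me3 bases than both pre-T lines in 87 (54.0%, 46.0 to 61.9). Over all tested bins with H3K4me3 the share was 1325 of 4387 (30.2%). Of the 33 bins with less H3K27me3 in AML and H3K4me3 in any line, 961C had more H3K4me3 than both pre-T lines in 26 (78.8%, 61.1 to 91.0), against 41.9% of all tested bins. Medians of H3K4me3 cover were taken over the bins with H3K4me3 in any line. In the 161 higher bins the median was 2017 bp in 961C, 2818 bp in 748T and 2850 bp in 106A. In the 33 lower bins it was 2284 bp, 1575 bp and 1027 bp. Without the bin on chromosome 11 from 96100001, where 961C had 61839 bp, the medians were 2202.5, 1503 and 1003.5 bp. Across the 4387 tested bins with H3K4me3 the lines were close, at 1824, 1773 and 1825 bp.

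**Figure D3:**
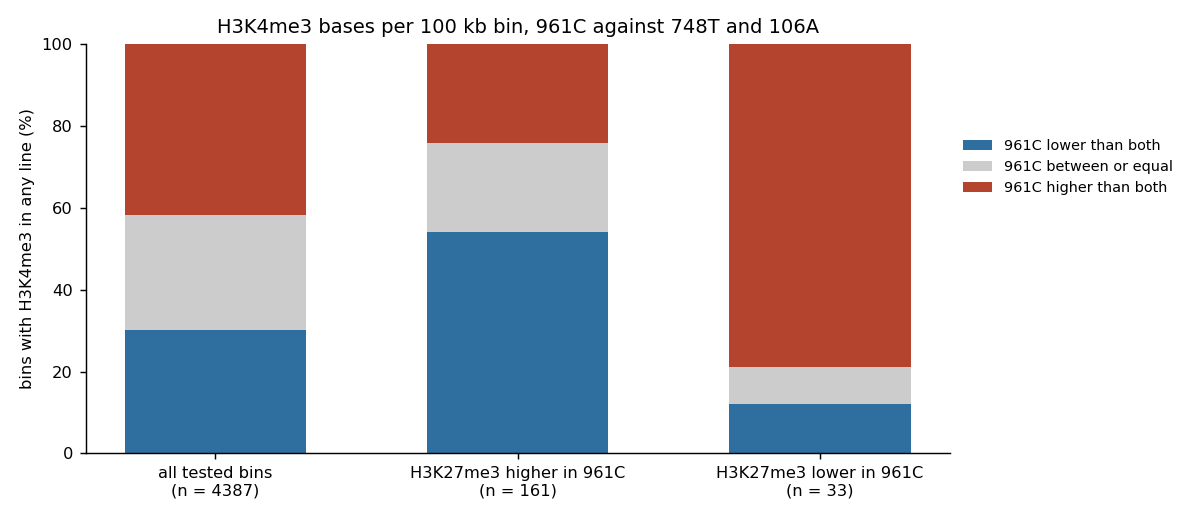
Share of bins, in percent of those with H3K4me3 in any line, in which 961C had fewer (blue), between or equal (grey) or more (red) H3K4me3 bases than both pre-T lines. The share with fewer was 54.0% in the bins higher in H3K27me3 and 30.2% in all tested bins, and the share with more was 78.8% in the lower bins and 41.9% in all. The n under each bar is the number of bins.

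The reverse relation held for 87 of 161 and 26 of 33 bins and not for the rest. In 39 of the higher bins (24.2%) 961C had more H3K4me3 than both pre-T lines, and in 4 of the lower bins it had less. Without 748T, 405 bins were higher and 341 lower, and the shares were 52.0% and 53.2%. Without 106A, 435 were higher and 392 lower, and the shares were 42.7% and 52.3%. NP23 of 961C was in 11 of the 199 higher bins (5.53%), in 2 of the 46 lower ones and in 429 of all 6755 (6.35%).

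Peak by peak, H3K27me3 of the AML line lay more often on H3K4me3 of the pre-T lines than on its own. Of 19102 H3K27me3 peaks of 961C, 389 (2.04%, 1.84 to 2.25) met H3K4me3 of 961C. H3K4me3 of 748T was met by 1024 (5.36%, 5.05 to 5.69) and that of 106A by 805 (4.21%, 3.93 to 4.51). In 748T the 3 shares were close, and 106A, like 961C, met its own H3K4me3 least. Of 748T H3K27me3 peaks, 1.34% met H3K4me3 of 961C, 1.75% their own and 1.67% that of 106A. Of 106A H3K27me3 peaks, 1.33% met H3K4me3 of 961C, 1.35% that of 748T and 0.461% (0.298 to 0.680) their own.

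**Figure D4:**
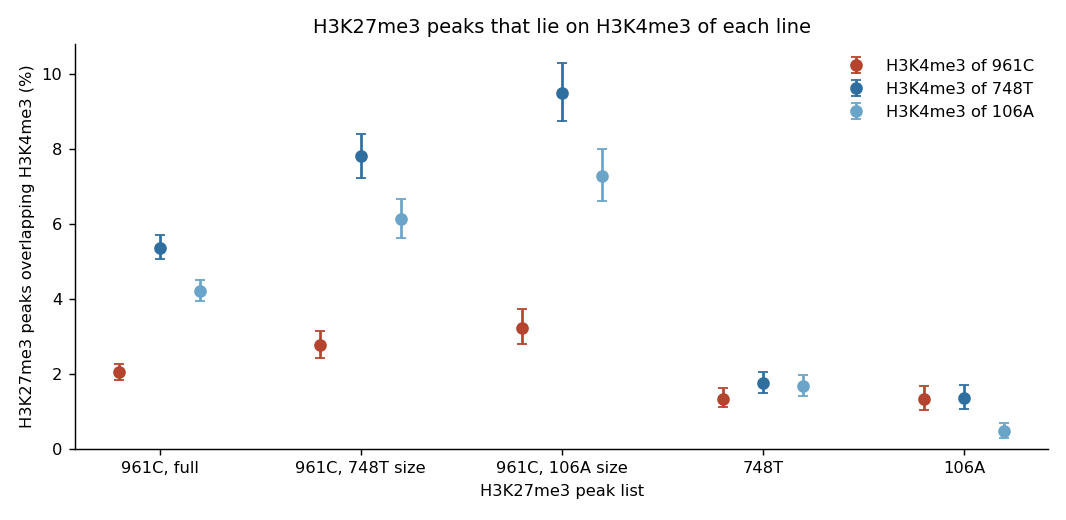
Percent of H3K27me3 peaks of each list (x axis; 961C full and cut to the sizes of the pre-T lists) that overlap H3K4me3 of 961C (red), 748T (dark blue) and 106A (light blue). Points are shares and bars exact 95% intervals for counting error. In the 3 columns of 961C the red point, 2.04% in the full list, lies below both blue ones, 5.36% and 4.21%.

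The gap was larger among wide AML peaks. Of 961C peaks of 1 kb or more, 3.44% (2.65 to 4.38) met own H3K4me3, 16.8% (15.1 to 18.6) that of 748T and 11.3% (9.89 to 12.8) that of 106A. Of those under 250 bp, 2.14%, 2.53% and 2.23% did so. NP23 met 146 of the 961C H3K27me3 peaks (0.764%), 116 of them under 250 bp, and 0 of the 1832 of 1 kb or more (upper limit 0.201%). Without 961C peaks of second-track mean above 1, 356 of 18728 met own H3K4me3, and 5.40% and 4.22% that of 748T and 106A.

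Seen from H3K4me3, places that had it in both pre-T lines and not in AML carried AML H3K27me3 more often than shared H3K4me3 did. Of 612 H3K4me3 peaks of 748T of 1 kb or more that were found in 106A and not in 961C, 158 (25.8%, 22.4 to 29.5) carried H3K27me3 of 961C. Of the 7421 that were found in all 3 lines, 134 did (1.81%, 1.52 to 2.14). Taken from 106A, the counts were 189 of 693 (27.3%, 24.0 to 30.8) and 161 of 7725 (2.08%). H3K27me3 of the pre-T lines themselves was on 1.96% (748T) and 0.980% (106A) of the 612. With 961C cut to the 106A size, 16.7% of the 612 and 18.9% of the 693 still carried its H3K27me3. Over all widths the shares were lower, 13.7% (12.3 to 15.1) of 2306 from 748T and 13.6% (12.2 to 15.1) of 2149 from 106A. Both were 8.89% with the cut to the 106A size. Of the H3K4me3 peaks of all widths found in all 3 lines, 1.59% from 748T and 1.69% from 106A carried H3K27me3 of the full 961C list.

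The opposite places, with H3K4me3 in the AML line alone, carried pre-T H3K27me3 at low shares, though more often than shared H3K4me3 did. Of 807 H3K4me3 peaks of 961C of 1 kb or more that neither pre-T line had, 17 (2.11%, 1.23 to 3.35) carried H3K27me3 of 748T and 12 (1.49%, 0.771 to 2.58) that of 106A. Of the 7526 found in both pre-T lines as well, 0.345% (0.226 to 0.506) and 0.173% (0.0920 to 0.295) did. H3K27me3 of 961C itself was on 10 of the 807 (1.24%, 0.596 to 2.27), an interval that takes in both pre-T shares, and on 0.585% of the 7526. With 961C cut to the 748T size it was on 6 of the 807 (0.743%, 0.273 to 1.61). With the cut to the 106A size it was on 3 (0.372%, 0.0767 to 1.08). These intervals overlap those of the matching pre-T lists, so a difference between the lines at these 807 peaks was not shown. Over all widths, AML H3K27me3 was on 3.98% of the 4648 H3K4me3 peaks of 961C alone, above 0.796% for 748T and 0.495% for 106A. With 961C cut to the 748T size it was on 2.78% (2.32 to 3.29), and with the cut to the 106A size on 2.24% (1.83 to 2.70). Over all widths 961C thus stayed above each pre-T list at an equal number of peaks, though its cut lists covered more bases. The H3K4me3 lists were alike in size, with 17109 peaks in 961C, 16994 in 748T and 15793 in 106A, while the median H3K4me3 peak was 39, 77 and 99 reads high. Cut to equal numbers of the tallest H3K4me3 peaks, the lists gave 26.3% for 748T and 28.3% for 106A in place of 25.8% and 27.3%.

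Few of the widest H3K4me3 domains bound by NP23 carried H3K27me3 in any of the lines. Of the 134 H3K4me3 peaks of 961C of 5 kb or more, 86 held NP23. H3K27me3 of 961C lay on 1 of these 86, that of 748T on 3 and that of 106A on 2. Of the H3K4me3 peaks of 1 kb or more above, 44 of the 7526 and 10 of the 807 carried H3K27me3 of 961C. Those peaks were narrower, with medians of 1766 and 1480 bp, and were drawn from the same list without taking out the 86. Whether the 86 differ from other H3K4me3 was therefore not settled. The one with AML H3K27me3 was on chromosome 13 (40822928 to 40832115), 9.19 kb wide, with 5 such peaks and none of the pre-T lines. Both with H3K27me3 of 106A lay on chromosome 11 between 96111545 and 96184711, and these had H3K27me3 of 748T too. Within 50 kb, H3K27me3 was found beside 26 of the 86 domains in 961C, 17 in 748T and 6 in 106A. These counts fall in the order of the list sizes, 19102, 8362 and 5424 peaks. They were not matched for list size or set against other H3K4me3 peaks, so they show nothing particular to these domains. The chromosome 13 domain and the limits of 5 and 50 kb were picked with the values known.

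Around the chromosome 11 domain, the marked stretch of the pre-T lines ran on where that of AML was interrupted. From 96000001 to 96100000, H3K27me3 covered 28.2 kb in 961C, 8.02 kb in 748T and 17.7 kb in 106A. In the next 100 kb it covered 0, 3.05 and 10.3 kb, while H3K4me3 covered 61.8 kb in 961C, 3.90 kb in 748T and 1.35 kb in 106A, and NP23 59.2 kb in 961C. The last AML H3K27me3 peak before the NP23-bound H3K4me3 was 28.8 kb away. Beyond it AML H3K27me3 resumed, 29.2 kb past the end of that H3K4me3 at 96184711. The 100 kb bins from 96300001 to 96700000 were all called higher in 961C.

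On chromosome 6 the order of the lines was reversed while H3K4me3 was alike in total over 200 kb, but not in each part. From 52100001 to 52300000, H3K4me3 covered 35.9 kb in 961C, 37.9 kb in 748T and 30.1 kb in 106A, and NP23 of 961C covered 29.3 kb. H3K27me3 covered 35.4 kb in 961C with 42 peaks, 1.29 kb in 748T with 4 and 0.089 kb in 106A with 1. Most of it, 28151 bp in 961C, lay from 52200001 to 52300000. There H3K4me3 covered 0 bp in 961C, 1936 bp in 748T and 2850 bp in 106A. From 52100001 to 52200000, 961C had 7290 bp of H3K27me3, and H3K4me3 covered 35945, 35953 and 27214 bp in the same order. The nearest AML H3K27me3 peak began 0.027 kb from the end of the NP23-bound H3K4me3 peak (52156421 to 52185551). The AML domain that starts there, 47.1 kb long, is the tenth longest of that line. The marks were not apart in the AML line there: the domain held 6.17 kb of 961C H3K4me3 in narrower peaks, some of which overlapped its H3K27me3. In the pre-T lines the nearest H3K27me3 peak was 27.6 kb (748T) and 82.3 kb (106A) from the same H3K4me3 peak.

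On chromosome 15, neighbouring stretches differed in opposite directions. From 102700001 to 102900000 all 3 lines were heavily marked, with 60.5 kb of H3K27me3 in 961C, 14.8 kb in 748T and 35.9 kb in 106A. In the following 100 kb the cover was 25.0, 1.96 and 2.74 kb. From 103100001 to 103300000 it was 0 in 961C, 2.91 kb in 748T and 8.18 kb in 106A, with H3K4me3 over 9.48, 5.96 and 3.39 kb in the same order. No NP23 peak lay in this region.

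**Figure D5:**
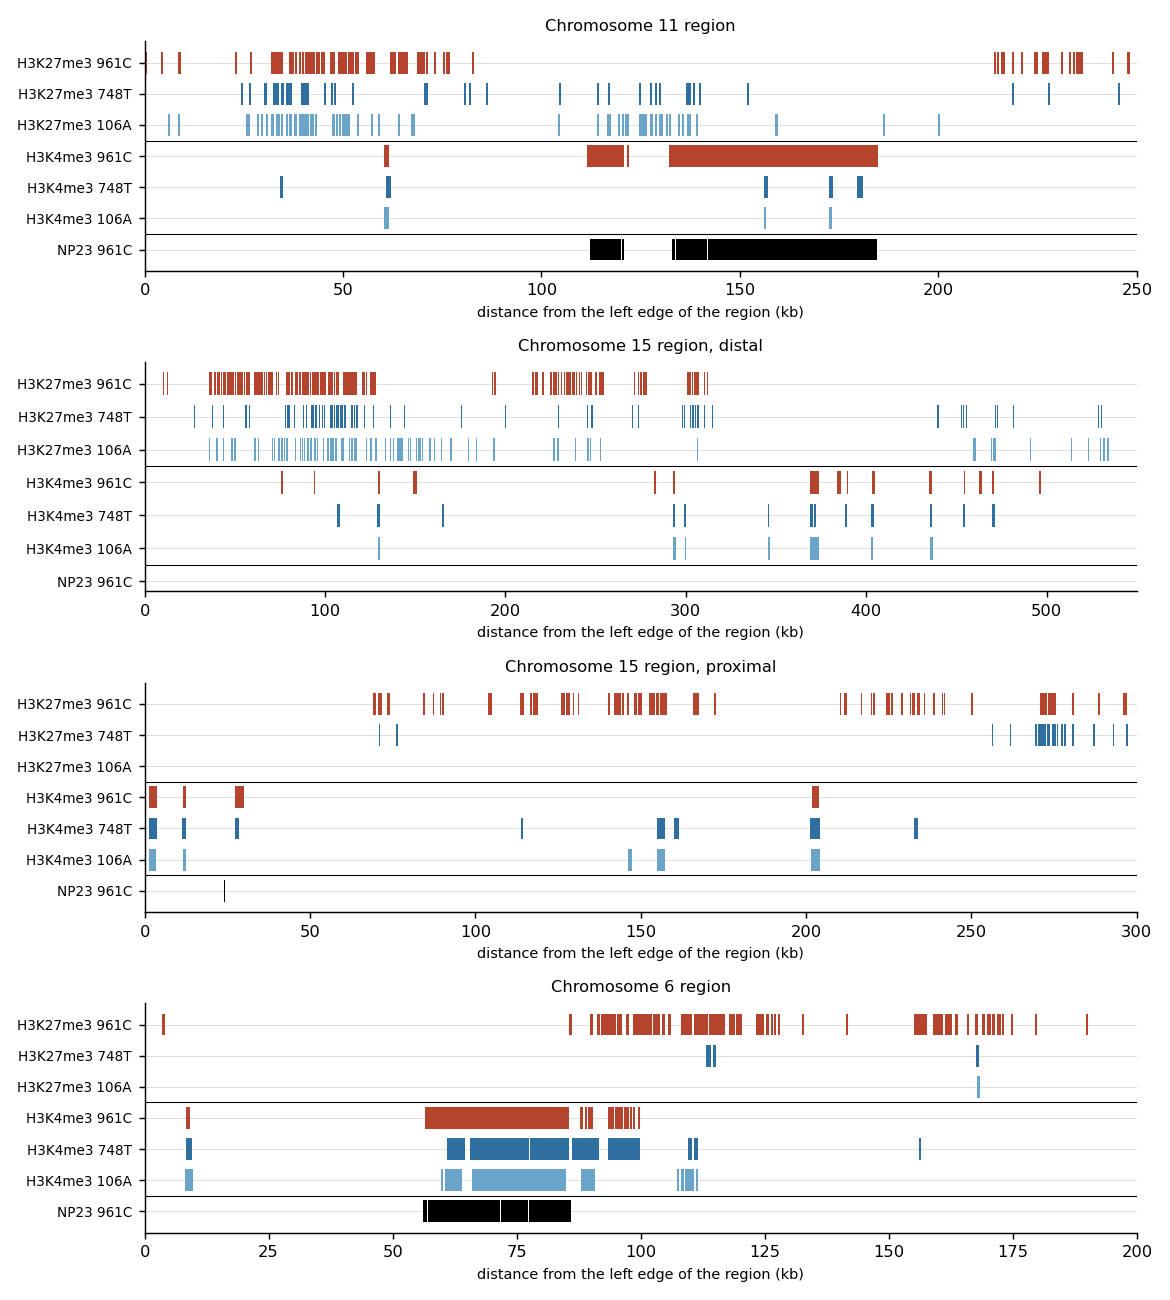
Peaks of H3K27me3 and H3K4me3 in 961C (red), 748T (dark blue) and 106A (light blue) and of NP23 in 961C (black) over 4 regions of 250, 550, 300 and 200 kb, with distance from the left edge on the x axis. Bars span the listed peaks, and those under 0.5 kb are drawn 0.5 kb wide. In the chromosome 11 region AML H3K27me3 is missing where NP23 and H3K4me3 are broad, and in the chromosome 6 region it begins at the right end of NP23 and of the widest H3K4me3 peak, with narrower H3K4me3 peaks running on into it.

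By chromosome, 961C had more peaks than each pre-T line on all 19 autosomes, so the higher cover was not held by a few of them. Shares of the full list differed: that of 961C was above both pre-T lines on 7 autosomes, below both on 6 and between on 6. Chromosome 6 held 6.68% of 961C peaks, 4.22% of 748T peaks and 5.68% of 106A peaks, and chromosome 19 held 4.40%, 2.48% and 3.80%. Chromosome 13 was low in the AML line, with 2.95% against 3.72% and 3.74%, and 1.35% and 0.951% in the cut lists. Of the 961C peaks on chromosome 13, 20.0% were kept in the cut to the 748T size, against 44.5% on the other autosomes. The second track of 961C on chromosome 13 was at 0.508 times its autosomal level over H3K27me3 peaks and at 0.791 times over H3K4me3 peaks, and the median H3K4me3 peak there was 27 reads high. In 106A, chromosome 3 held 10.4% of the peaks with a second track of 1.55 times, and in 748T the second track was 1.41 times on chromosome 14 and 2.04 times on chromosome 15. The part of these levels in the shares and in the bins on those chromosomes was not tested.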

How the data were processed

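Peak lists were deposited by the authors, 1 per library. The files deposited by the authors give for each peak its region and, as text, the mean and maximum pileup height in reads, and the same for a second track, which is not explained and was presumed to be background. Per the submitters' processing notes, CASAVA 1.9, BWA 0.5.9-r26 and build mm9 were used; no source used here names the peak caller. Antibodies, single-end sequencing and formaldehyde fixation are per the labels' protocols.

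Autosomal peaks entered (coordinates 1-based). The 961C list was cut by maximum height, ties broken by mean height, to the number of peaks in each whole pre-T list. Peaks were placed in 100 kb bins by midpoint, with 1 added to each count and a fold of at least 4. Peaks overlapped from 1 shared bp. Intervals of shares (95%, exact Clopper-Pearson) cover counting error. With 1 AML and 2 pre-T libraries no test was made. Depth is unknown, and numbers and heights of listed peaks limit precision. The steps were tested on simulated data. Python 3.11.15, numpy 2.4.6, pandas 2.3.3 and scipy 1.17.1 were used.

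Named by rule were the 10 bins each way with the largest smaller fold, the 5 widest peaks and the 10 longest domains (gaps up to 5 kb) of each line, of which those the text turns on are given. Members, lists and rules were chosen with earlier results of these data known. Gene and marker lists were not used, because the gene tables at hand are for another build, so the labelled cell types could not be checked against markers. Alternatives were the fold, bin size and offset, covered bases, full or cut lists, tie rule, taller peaks, second track, 50% overlap, joined peaks and leaving out each pre-T line. Chosen once the data had been seen were equal bases, joined peaks in bins, and all settings for H3K27me3 on H3K4me3.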

Additional observations from a re-analysis of the deposited data

How the results depend on the processing

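The ratio of bases covered by 961C to those of the larger pre-T list, 3.94, was 2.39 with 961C cut to the 748T size, and 3.94 to 5.80 on leaving out each pre-T line. The overlap differences in favour of 961C, 3.08 points on 106A peaks and 5.91 on 748T peaks, reversed to -2.88 and -0.753 with 961C cut to equal bases. That cut leaves fewer peaks of 961C. Otherwise they were 7.76 and 12.7 with the full 961C list, 6.86 and 11.7 with the taller 50% of peaks, 4.02 on 106A peaks at 50% overlap and 7.02 on 748T peaks with all lists at the 106A size. Leaving out a pre-T line gives no such difference, since both are needed.

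The 199 higher and 46 lower bins became 956 and 30 with the full 961C list, 377 and 128 at 3-fold, 51 and 14 at 6-fold, 428 and 16 by covered bases, 14 and 86 with equal bases, and 86 and 30 with peaks within 1 kb joined. Leaving out each pre-T line gave 405 to 435 higher and 341 to 392 lower bins, since 1 line then decides. The share of higher bins with less H3K4me3 in 961C was 42.4% with the full list, 45.1% at 3-fold and 44.7% by covered bases. It was 42.7% to 52.0% on leaving out each pre-T line, and over 14 alternatives it ranged to 57.1%. The share of lower bins with more H3K4me3 in 961C was 52.3% to 53.2% on leaving out each pre-T line and ranged to 88.0%.

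The gap between 961C H3K27me3 on H3K4me3 of 106A and on its own, 2.18 points, was 3.36 and 4.05 with the cuts to the 748T and 106A sizes, 3.21 in the taller 50% of peaks and 1.74 at 50% overlap. Pre-T H3K4me3 peaks of 1 kb or more missing in AML carried AML H3K27me3 in 27.3% from 106A and 25.8% from 748T. Under the same 3 list changes these shares were 21.5% and 19.9%, 18.9% and 16.7%, and 22.7% and 21.2%. Causes were not tested. With 1 library per line, no spread within AML is known, and depth limits what was listed.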
